A study of Mus musculus with 4 samples.

Results

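Large-vessel endothelial cells line the arteries and veins of the lung, as opposed to the capillaries around the alveoli. Here they were taken as cell barcodes with at least 2 of the 4 endothelial genes Pecam1, Cdh5, Cldn5 and Egfl7, with at least 2 unique molecular identifiers (UMIs, counts of captured RNA molecules) of Vwf or at least 1 UMI of Gja5, and with no UMI of Ptprc, Epcam or Itga2b. The last 3 genes mark leukocytes, epithelium and platelets. Barcodes were kept with at least 250 genes, at most 15% mitochondrial UMIs and under 50% haemoglobin UMIs. Of 28168 kept barcodes, 865 passed the endothelial part of the rule and 126 of these passed the Vwf or Gja5 part. The other 739 endothelial barcodes, capillary and lymphatic ones among them, served for comparison.

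The series set lungs of tamoxifen-treated mice against lungs of placebo-treated mice. All 4 mice were FVB/NJ females that carried the MMTV-PyMT transgene, in which the promoter of the mouse mammary tumour virus drives the polyoma middle T oncogene in mammary epithelium and which is used as a model of mammary cancer. Tamoxifen, a selective oestrogen receptor modulator, was given to 2 mice as a 5 mg pellet with release over 60 days, and the other 2 mice carried a placebo pellet as the vehicle control. Pellets were in place for 5 weeks from the age of 8 weeks, and lungs were taken at 13 weeks. The lungs were perfused and dissociated with enzymes, and 1 droplet library of 5′ transcript ends (10x Genomics) was made per mouse. Each mouse is 1 replicate, and no mouse without the transgene was analysed here.

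The endothelium of arteries and veins differs from that of capillaries in what it makes and stores. Vwf encodes von Willebrand factor, which large-vessel endothelium keeps in Weibel-Palade bodies together with P-selectin (Selp) and releases to catch platelets. Gja5 encodes connexin 40, a gap junction protein of arterial endothelium, and Bmx a kinase of the same cells. Arterial identity is held by Notch signalling through Dll4 and Hey1 and by the ephrin Efnb2, whereas veins carry the receptor Ephb4 and the transcription factor Nr2f2. In the mouse lung Slc6a2, the noradrenaline transporter, marks the endothelium of veins. On GRCm38 the genes that set members apart from other endothelium or split them lie at chr6:125546774-125686679 on the plus strand (Vwf), chr3:96904693-97077416, plus (Gja5), chrX:164192842-164258193, minus (Bmx), chr8:92960079-93001667, plus (Slc6a2), chr3:132085292-132180304, plus (Dkk2), chr1:164115264-164150026, plus (Selp), and chr3:116109949-116129688, minus (Vcam1).

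The members numbered 36 and 18 in the tamoxifen mice, against 42 and 30 in the placebo mice. Together they held 287446 and 116381 UMIs in the tamoxifen mice, against 261273 and 282555 in the placebo mice, so tamoxifen mouse 2 was the thinnest sum. The median member had 5612.5 and 4397 UMIs in the tamoxifen mice, against 4595 and 6548 in the placebo mice. The other endothelial barcodes had medians of 3672 and 3134.5 UMIs in the tamoxifen mice, against 3288 and 4049.5 in the placebo mice, so members were the deeper barcodes in each of the 4 mice. The libraries held 32646505 and 35625624 UMIs in the tamoxifen mice, against 32728083 and 37285982 in the placebo mice. Pairs of libraries shared between 77 and 128 deposited barcode sequences, and no barcode was a member in both libraries of a pair.

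The 4 marker genes fixed for the label were detected, but Vwf and Gja5 chose the members, so their shares are a description and do not bear on the label. Vwf had a UMI in 94 members (74.6%), Gja5 in 59 (46.8%), Slc6a2 in 26 (20.6%) and Bmx in 18 (14.3%). Among the other endothelial barcodes these shares were 3.79%, 0%, 0.135% and 0.812%, the first 2 again set by the rule. Slc6a2 and Bmx did not choose the members. Free RNA gives stray UMIs in droplets, and B cells, which should lack these genes, had a UMI in 0.477% (Vwf), 0.477% (Gja5), 0% (Slc6a2) and 1.43% (Bmx) of 1468 barcodes, whose median per mouse was 2755 to 4804 UMIs. The 0 of 1468 for Slc6a2 allows a share of up to 0.204%. Likewise by the rule, Pecam1 was in 97.6% of members, Cdh5 in 91.3%, Cldn5 in 88.1% and Egfl7 in 91.3%. The B cells had Cdh5, Cldn5 and Egfl7 in 1.36% to 2.66% of barcodes but Pecam1 in 32.0%, and the rule asks for at least 1 more endothelial gene beside Pecam1.

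Capillary genes were also present in members. At least 2 of the general capillary genes Gpihbp1, Plvap, Kit, Aplnr, Glp1r and Sema3c were found in 105 members (83.3%), against 69.1% of the other endothelial barcodes, so the rule did not leave a set free of capillary transcripts. At least 2 genes of the list for aerocytes, the thin gas-exchange capillary cells, were found in 54.0% of members, against 66.4% of the others. Of the 7 genes of the lymphatic list, Ccl21a, Mmrn1, Prox1 and Reln had no UMI in any of the 126 members, which allows a share of up to 2.38% each. The other 3 had UMIs. Lyve1, a hyaluronan receptor, was found in 79.4% of members, against 35.2% of the others, the growth factor receptor Flt4 in 23.02%, against 28.7%, and Pdpn, podoplanin, in 0.794%, against 3.25%. Because of them, at least 2 lymphatic genes were found in 24 members (19.0%), against 14.9% of the others, and the list summed to 1065 CPM (UMIs scaled to a total of 1000000) in members, against 973.

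Markers of other cell types were found beside the endothelial ones. At least 2 genes of 1 or more of 11 lists for other cell types were found in 16 of 36 and 9 of 18 members of the tamoxifen mice, against 15 of 42 and 12 of 30 of the placebo mice. The lymphatic list is 1 of the 11 and took in the most members, the 24 given above. Fibroblast genes came next, with at least 2 in 19 members (15.1%), against 3.92% of the other endothelial barcodes. At least 2 genes of the endocardial list, which marks the lining of the heart, were found in 13 members, 10 of them venous, against 2 of the other 739, and this rests on Npr3 and Cytl1, the only genes of that list with a UMI. A list for cardiac muscle had 1 UMI in all members. No member had a Scrublet doublet score over 0.25.

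A split by genes seen in the same barcodes gave 4 classes. Arterial members had a UMI of Gja5, Bmx or Dkk2 and none of Slc6a2, Selp or Vcam1, and venous members the reverse. Arterial members numbered 10 and 9 in the tamoxifen mice, against 13 and 12 in the placebo mice. Venous members numbered 10 and 1 in the tamoxifen mice, against 12 and 6 in the placebo mice. Another 24 members had genes of both sides and 29 of neither. Members with genes of both sides were the deepest, with a median of 9275 UMIs, against 3884.5 in arterial, 7097 in venous and 3898 in unsplit members. Fibroblast genes were most frequent among them, with at least 2 in 12 of 24, against 6 of 44 arterial, 1 of 29 venous and 0 of 29 unsplit members.

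**Figure D1:**
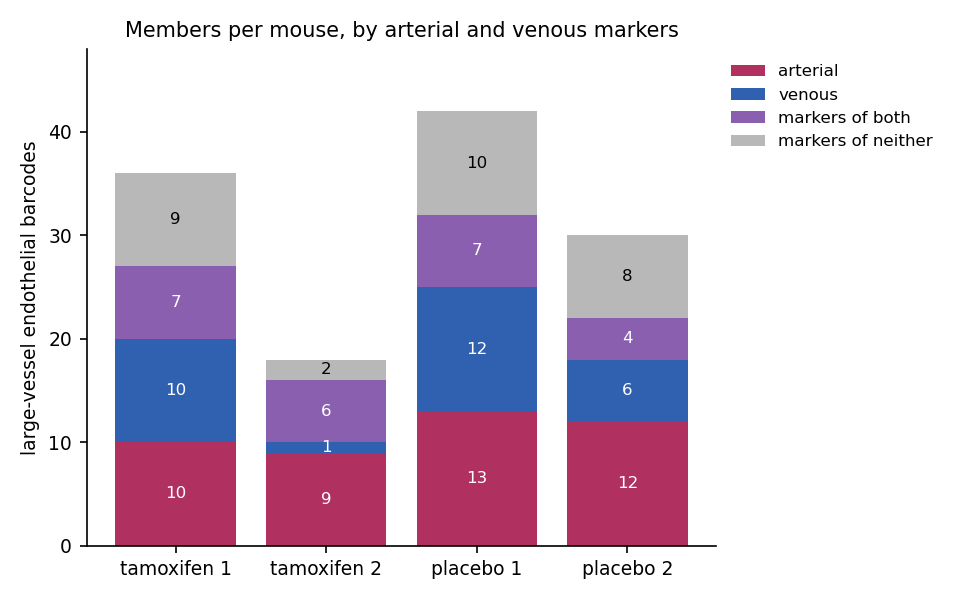
Number of large-vessel endothelial barcodes of each class, for each tamoxifen and placebo mouse. Tamoxifen mouse 2 had 1 venous barcode, against 6 to 12 in the other mice, while arterial barcodes ranged from 9 to 13.

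Gja5 and Slc6a2 were seldom seen together. Of the 59 members with Gja5, 1 had a UMI of Slc6a2 (1.69%), and of the 67 without Gja5, 25 had one (37.3%). The median depth was 5153 UMIs with Gja5, against 4541 without, so the members with Gja5 were no shallower. All 26 members with Slc6a2 also had Vwf, 14 had Vcam1, an adhesion molecule for leukocytes, and 5 had Selp. By mouse, Slc6a2 was found in 9 and 0 members of the tamoxifen mice, against 10 and 7 of the placebo mice. Tamoxifen mouse 2 was thus the only mouse with none among its members. Over all kept barcodes Slc6a2 stood at 4.01 and 0.448 CPM in the tamoxifen mice, against 3.98 and 4.69 in the placebo mice. Since members without Gja5 could enter only through Vwf, these shares describe the set and were not tested.

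The Vwf threshold can be looked at from both sides in endothelial barcodes without Gja5. Slc6a2 was found in 0.141% of the 711 barcodes with no Vwf, 0% of the 28 with 1 UMI, 11.1% of the 9 with 2 UMIs and 41.4% of the 58 with 3 or more. Fbln5, an elastic fibre protein, was found in 4.64%, 3.57%, 11.1% and 60.3% of the same 4 sets. Prss23, a secreted protease on the venous list, was found in 24.2%, 50%, 55.6% and 82.8%. Car4, a carbonic anhydrase high in aerocytes, ran the other way, with 47.1%, 39.3%, 11.1% and 17.2%. The median UMI counts were 3313, 4999, 4529 and 4663, so only the set without Vwf was shallower than the rest. The 9 members with exactly 2 UMIs of Vwf are too few to place between their neighbours. Another 36 members entered through Gja5 with under 2 UMIs of Vwf, at a median of 5631.5 UMIs. Among them Gpihbp1 was found in 91.7% and Kit in 61.1%, against 67.7% and 46.1% of the 711 barcodes with neither gene. Fbln5 was found in 38.9% of these members, Car4 in 30.6%, Bmx in 5.56% and Slc6a2 in 0%. Gja5 was found in 42 of the 44 members classed below as arterial, with a median of 1 UMI where detected.

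**Figure D2:**
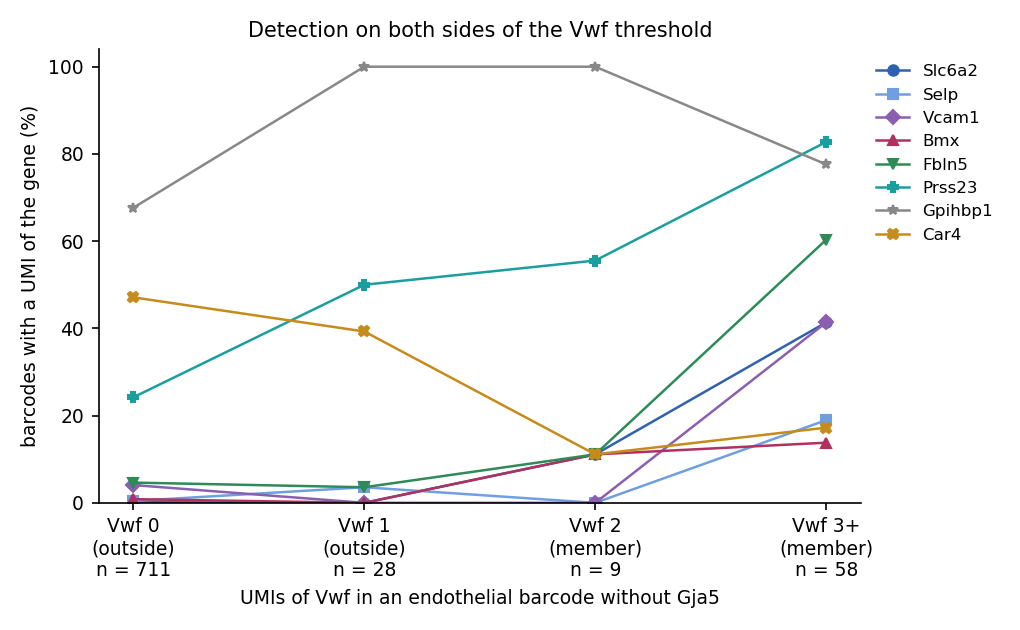
Share of barcodes with a UMI of each gene, in percent, among endothelial barcodes without Gja5 grouped by their UMIs of Vwf (0 and 1 are outside the rule, 2 and 3 or more are members). Slc6a2, Selp, Vcam1 and Fbln5 were highest in the set with 3 or more UMIs of Vwf, and Car4 was lower in both member sets than in both sets outside.

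Arterial and venous members differed in genes known for these vessels and, in summed counts, in aerocyte genes. In summed counts 15 of 19 genes of the arterial list, 0 of 14 of the venous list and 9 of 10 of the aerocyte list were higher in arterial than in venous members, with median log2 ratios of 0.85, -3.07 and 2.19. Over the 910 genes with at least 100 UMIs, 55.1% were higher in arterial members, and the median was 0.053. The first 2 lists include the genes that made the split. Emp2, a membrane protein of the aerocyte list, stood at 877 CPM in arterial, against 137 in venous members, and Cyp4b1, a cytochrome P450 of that list, at 588, against 182. All 10 aerocyte genes stood higher in the other endothelial barcodes than in arterial members, Emp2 at 1458 and Cyp4b1 at 965 CPM. By barcode the classes were alike, with at least 2 aerocyte genes in 21 of 44 arterial and 14 of 29 venous members. The median depths of these classes were 3884.5 and 7097 UMIs. Because the classes were chosen from the same counts, all arterial and venous values are a description without a test, and the venous values of tamoxifen mouse 2 come from 1 barcode. Of the 910 genes, 157 (17.3%) were higher and 92 (10.1%) lower in arterial than in venous members in each of the 4 mice.

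On the arterial side the chemokine Cxcl12 stood at 1322 and 1414 CPM in the tamoxifen mice and 1694 and 1113 in the placebo mice, against venous values of 82.2 and 0 CPM in the tamoxifen mice and 112 and 151 in the placebo mice. It was detected in 77.3% of arterial and 34.5% of venous members. The ephrin ligand Efnb2 stood at 740.6 CPM in arterial members, against 96.4 in venous ones, and was detected in 70.5% and 41.4% of them. Fbln5 and elastin (Eln), also on the arterial list, went the other way. Fbln5 stood at 144 CPM in arterial, against 267 in venous members, and Eln at 244, against 382. Hilpda, a lipid droplet protein induced by hypoxia, was found in 79.5% of arterial and 20.7% of venous members. Sema3g, a secreted semaphorin, was found in 61.4% and 20.7%, and Alas1, the first enzyme of haem synthesis, in 65.9% and 31.0%. Among Notch genes Dll4 stood at 380.3 CPM in arterial, against 14.8 in venous members, and its target Hey1 at 360.3 CPM, against 18.5, while the ligand Dll1 went the other way with 100.1 CPM, against 304.2. Notch1 stood at 404.3 CPM in arterial members, against 196.6 in venous ones.

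The remaining leading arterial genes rested on few barcodes. Mfap4, a microfibril protein, Sod3, an extracellular superoxide dismutase, and Inmt, a methyltransferase, were found in only 5 or 6 of 44 arterial members, Gpx3, an extracellular glutathione peroxidase, in 9 and Car4 in 11. Without the barcodes that carried markers of another cell type, a choice made after the values were seen, 26 arterial and 20 venous members remained. There Mfap4, Sod3 and Inmt had no UMI and Gpx3 had 2, while the other 16 of the 20 leading genes stood on the same side as before. Of these, Car4 was left with 7 arterial and 3 venous UMIs, and its log2 ratio went from 4.02 to 1.64.

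On the venous side Lrg1, a secreted glycoprotein of the transforming growth factor pathway, stood at 19.4 and 0 CPM in arterial members of the tamoxifen mice and 129 and 46.0 in those of the placebo mice, against venous values of 1096 and 224 CPM in the tamoxifen mice and 1320.4 and 1991 in the placebo mice. It was detected in 13.6% of arterial and 86.2% of venous members. Prss23 was found in all 29 venous members, and stood at 188 CPM in arterial, against 2637 in venous ones. Car8, a member of the carbonic anhydrase family, was found in 6.82% of arterial and 75.9% of venous members, and Ackr3, a scavenger receptor for Cxcl12, in 45.5% and 82.8%. Cxcl12 and its scavenger thus stood on opposite sides. Samd5, Pim3 (a kinase), Il6st (the shared receptor chain of the interleukin 6 family), Junb and the endothelial transcription factor Fli1 completed the 10 leading venous genes. Vwf was among them too, but venous members could enter only through Vwf.

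Genes of the fixed venous list followed, with the Efnb2 receptor Ephb4 at 228 CPM in arterial, against 464 in venous members, Nr2f2 at 28.0, against 126, and the adhesion gene Amigo2 at 12.01, against 263. In haemostasis genes the classes also differed. Procr, the endothelial protein C receptor, stood at 48.04 CPM in arterial, against 215 in venous members, and Plat, tissue plasminogen activator, at 280.2 CPM, against 7.42. Vegfc, a growth factor for lymphatic vessels, stood at 12.01, against 297 CPM, and Nos3, the endothelial nitric oxide synthase, at 52.0, against 178. Thrombomodulin (Thbd) showed no such split, with 1205 CPM in arterial and 1295 in venous members. Amigo2, Nr2f2, Dll1, Procr, Plat, Vegfc and Nos3 were chosen after their values were seen.

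**Figure D3:**
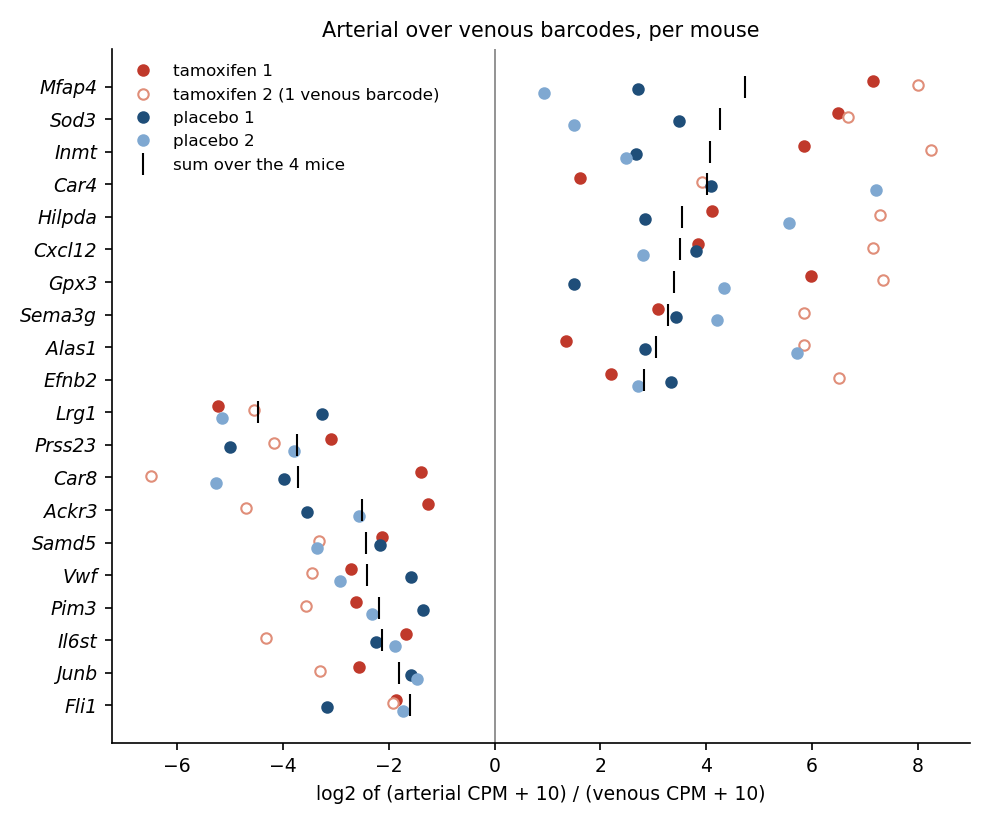
Log2 ratio of the level in arterial to that in venous members (CPM plus 10 on both sides) for the 10 leading genes of each side, with a point per mouse and a bar for the sum over the 4 mice. Genes to the right of 0 were higher in arterial members, and the open points rest on the 1 venous barcode of tamoxifen mouse 2.

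A second set of genes, which the rule did not name, stood higher in the members' sum than in the other endothelial barcodes. Of 6170 genes with at least 100 UMIs, 700 (11.3%) were higher and 953 (15.4%) lower in members in each of the 4 mice. These too are a description. Cytl1, a secreted cytokine-like protein, stood at 696 and 593 CPM in members of the tamoxifen mice and 566 and 21.2 in those of the placebo mice, against 1.32 CPM in the other endothelial barcodes of tamoxifen mouse 1 and 0 in those of the other 3 mice. It was detected in 22.2% of members and 0.135% of the others. Adgrg6, an adhesion receptor, was found in 45.2% and 1.76%, Samd5 in 54.0% and 7.85%, Car8 in 29.4% and 0.406%, and Cpe, carboxypeptidase E, in 24.6% and 1.89%. Not all members had these genes alike. Car8 was found in 6.82% of arterial and 75.9% of venous members, and Samd5 in 34.1% and 86.2%. Cpe was found in 4.55% of arterial and 62.1% of venous members.

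A further 3 leading genes came with fibroblast markers. The fibroblast transcription factor Tcf21 was found in 14 members, Mfap4 in 17 and Hsd11b1, a glucocorticoid-activating enzyme, in 15. Without the barcodes with markers of another cell type each of these 3 genes had under 10 UMIs over both sides, as had the lymphatic genes Ccl21a and Mmrn1, and the other 15 of the 20 leading genes kept their side. Among the 15, Sftpc was left with 1 UMI in members and 14 in the others. Tcf21, Ccl21a, Mmrn1 and Sftpc are themselves on the lists that chose the barcodes left out, so their fall was partly built in. The genes lowest in members included those of red cells (Hbb-bt, Hbb-bs, Hba-a1, Hba-a2, Alas2 and Tent5c), lymphatic endothelium (Ccl21a and Mmrn1) and alveolar type 2 epithelium (Sftpc), so they describe what the other barcodes also held.

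By role, all 14 venous genes and 13 of 19 arterial genes were higher in the members' summed counts than in the other endothelial barcodes. Over the 6170 genes with at least 100 UMIs this share was 44.9%, and the arterial list includes Gja5, which chose members. Efnb2 and Hey1 stood at 344 and 158 CPM in members, against 387 and 178 in the others, and Dll4 at 157, against 138. All 10 aerocyte genes were lower in the sum over members. Among vessel wall genes Fbln5 had 218 CPM in members, against 24.1 in the others, Ltbp4, which binds latent transforming growth factor, 503, against 89.8, and elastin (Eln) 425, against 109. These 3 genes were detected in 46.0%, 60.3% and 55.6% of members, against 4.60%, 10.96% and 20.2% of the others. Of the classes they stood highest in members with genes of both sides, at 327, 914 and 788 CPM. Fibroblast genes were most frequent in that class too. Ptgis, prostacyclin synthase, had 194 CPM, against 33.3, and Nos3 106, against 19.7. The capillary-enriched receptor Kdr was lower, with 307 CPM in members, against 878 in the others. Ptgis and Kdr were chosen after their values were seen.

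The question the series poses of these cells is whether tamoxifen changed their number or their transcripts. Members made up 0.523% (exact Clopper-Pearson 95% interval 0.367 to 0.723) and 0.246% (0.146 to 0.389) of kept barcodes in the tamoxifen mice, against 0.558% (0.402 to 0.753) and 0.465% (0.314 to 0.664) in the placebo mice. Such intervals cover counting error only. The means were 0.385 ± 0.196% with tamoxifen and 0.512 ± 0.0654% with placebo (SD, n = 2 each), a difference of -0.127 percentage points with p = 0.667 in a two-sided exact permutation test, whose smallest possible p with 2 against 2 mice is 0.333. Without tamoxifen mouse 2 the difference was 0.0116. Thinned to 1000 UMIs the share was 0.278% and 0.0864% in the tamoxifen mice, against 0.437% and 0.324% in the placebo mice, a difference of -0.199 points with p = 0.333 by the exact permutation test.

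Among endothelial barcodes the members' share was 16.6% (11.9 to 22.2) and 14.1% (8.55 to 21.3) in the tamoxifen mice, against 14.5% (10.6 to 19.1) and 13.0% (8.98 to 18.1) in the placebo mice, with p = 0.667 by the exact permutation test. With each barcode thinned to 1000 UMIs the share was 7.26 ± 3.20% with tamoxifen and 10.2 ± 1.13% with placebo, so the direction differed between the thinned and the unthinned values. Thinning left out 2 and 5 members in the tamoxifen mice, against 3 and 2 in the placebo mice, as too shallow. The arterial share of arterial and venous members was 50% (27.2 to 72.8) and 90% (55.5 to 99.7) in the tamoxifen mice, against 52% (31.3 to 72.2) and 66.7% (41.0 to 86.7) in the placebo mice, with p = 1 by the same exact test. The difference in the arterial share was 10.7 percentage points, and -9.33 without tamoxifen mouse 2. Thinned to 1000 UMIs the arterial share was 27.3% of 11 and 0% of 3 barcodes in the tamoxifen mice, against 44.4% of 18 and 46.2% of 13 in the placebo mice, a difference of -31.7 points with p = 0.333 by the exact permutation test, so the direction differed there too. No difference in number or in the arterial share could be shown with these 4 mice, and the intervals are wide.

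For transcripts, UMIs of all members of a mouse were summed and compared with edgeR's quasi-likelihood test. Of 4955 genes tested, 3 (0.0605%) passed a Benjamini-Hochberg adjusted p of 0.05, and 172 had an unadjusted p under 0.05. The genes that rose were Ccl6, a chemokine of myeloid cells, S100a8, a calcium-binding protein of neutrophils, and Mt1, a metallothionein induced by metals, glucocorticoids and stress. None fell. Without tamoxifen mouse 1 the count was 67, without tamoxifen mouse 2 it was 1, without placebo mouse 1 it was 0 and without placebo mouse 2 it was 27, where the lone mouse of a group is assumed to vary like the others. The 1 gene called without tamoxifen mouse 2 was none of the 3. Arterial and venous members were not tested apart, since tamoxifen mouse 2 had 9 and 1 of them, under the minimum of 10 barcodes per mouse.

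Ccl6 (chr11:83587882-83593087, minus strand) had 31 and 10 UMIs in the tamoxifen mice, against 1 and 1 in the placebo mice. On the scale of the test, which is CPM after scaling by the trimmed mean of M values (TMM), this was 120.3 and 95.7, against 4.25 and 3.83, a log2 fold change of 4.60 ± 0.61 (SE, edgeR adjusted p = 0.0465). In each tamoxifen mouse all UMIs came from 1 barcode. That of tamoxifen mouse 1 held 23845 UMIs, 43 of them of Vwf, together with 125 of the macrophage gene Lyz2. That of tamoxifen mouse 2 held 3476 UMIs, with 10 of Ear2, another macrophage gene.

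S100a8 (chr3:90668978-90670035, plus strand) had 53 and 85 UMIs in the tamoxifen mice, against 1 and 4 in the placebo mice, a log2 fold change of 5.51 ± 0.78 (SE, edgeR adjusted p = 0.0465). A single barcode gave 48 of the 53 and another 81 of the 85, with 25 and 69 UMIs of its partner S100a9. The neutrophil list holds S100a8 and S100a9. It summed to 299 and 1366 CPM in members of the tamoxifen mice, against 34.4 and 31.9 in those of the placebo mice. Of this, S100a8 gave 184 and 730 CPM, against 3.83 and 14.2, and S100a9 gave 115 and 593, against 30.6 and 17.7. The sum is thus nearly these 2 genes again. The monocyte and macrophage list summed to 699 and 137 CPM in the tamoxifen mice, against 119 and 0 in the placebo mice. At least 2 genes of a myeloid list were found in 4 and 2 members of the tamoxifen mice, against 1 and 0 of the placebo mice. Without these 7 barcodes Ccl6 had 0 and 0 UMIs in the tamoxifen mice, against 1 and 1 in the placebo mice, S100a8 had 4 and 3, against 1 and 4, and edgeR called 0 of 4720 genes, with 148 at an unadjusted p under 0.05. Mt1, described next, lost its call there with a log2 fold change of 5.90 ± 0.96 (SE, edgeR adjusted p = 1.00), no smaller than before. That comparison was chosen after the calls were seen. S100a8 and S100a9 are on a list that chose the barcodes left out, so the fall of S100a8 was built in. Ccl6 and S100a8 then had too few UMIs to be tested, so the 0 calls do not retest them.

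Mt1 (chr8:94179082-94180327, plus strand) had 84 and 100 UMIs in the tamoxifen mice, against 6 and 0 in the placebo mice, a log2 fold change of 5.60 ± 0.79 (SE, edgeR adjusted p = 0.0465). Again a single barcode gave 78 of the 84 and another 97 of the 100. Those 2 barcodes held 14558 and 18101 UMIs, 2 and 1 of Gja5, and 5 and 7 genes of the fibroblast list. The fibroblast list summed to 581 and 4313 CPM in members of the tamoxifen mice, against 980 and 701 in those of the placebo mice. Without all barcodes that had markers of another cell type edgeR called 0 of 2216 genes, with 55 at an unadjusted p under 0.05. That fit left out both barcodes rich in Mt1 and kept 74 of the 126 members, so it is no separate test of Mt1.

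Edn1 did not pass. It encodes endothelin 1, the vasoconstrictor made by endothelium, and was singled out after its values were seen. It had 58 and 23 UMIs in 18 and 8 barcodes of the tamoxifen mice, against 19 and 26 UMIs in 11 and 12 barcodes of the placebo mice. On the TMM scale this was 225 and 220.1 CPM, against 80.7 and 99.6, so the groups did not overlap, with a log2 difference of 1.30 ± 0.30 (SE) and an edgeR adjusted p of 0.641. Without barcodes with markers of another cell type the difference was 2.22. Ear2 had 15 and 10 UMIs in the tamoxifen mice, against 0 and 0 in the placebo mice, each from 1 barcode. The neutrophil chemokine Cxcl1 had 17 and 28 UMIs in the tamoxifen mice, against 0 and 0 in the placebo mice, and 17 and 27 of them lay in 1 barcode per mouse. Both had an edgeR adjusted p of 0.212.

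On the lower side the smallest unadjusted p belonged to B4galt4, a galactosyltransferase, with 12 and 4 UMIs in the tamoxifen mice, against 25 and 41 in the placebo mice (log2 -1.58 ± 0.41 SE, edgeR adjusted p = 0.976). Hpgd, which inactivates prostaglandins, had the most UMIs of the 5 genes with the smallest p on this side. It stood at 1258 and 976 CPM on the TMM scale in the tamoxifen mice, against 1699.5 and 2593 in the placebo mice, in 26 and 14, against 35 and 26 barcodes (log2 -0.94 ± 0.27 SE). Pqlc1, Gm17018 and Map1b, a microtubule protein, had log2 differences of -1.47, -2.52 and -1.87. None of these 5 genes passed.

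**Figure D4:**
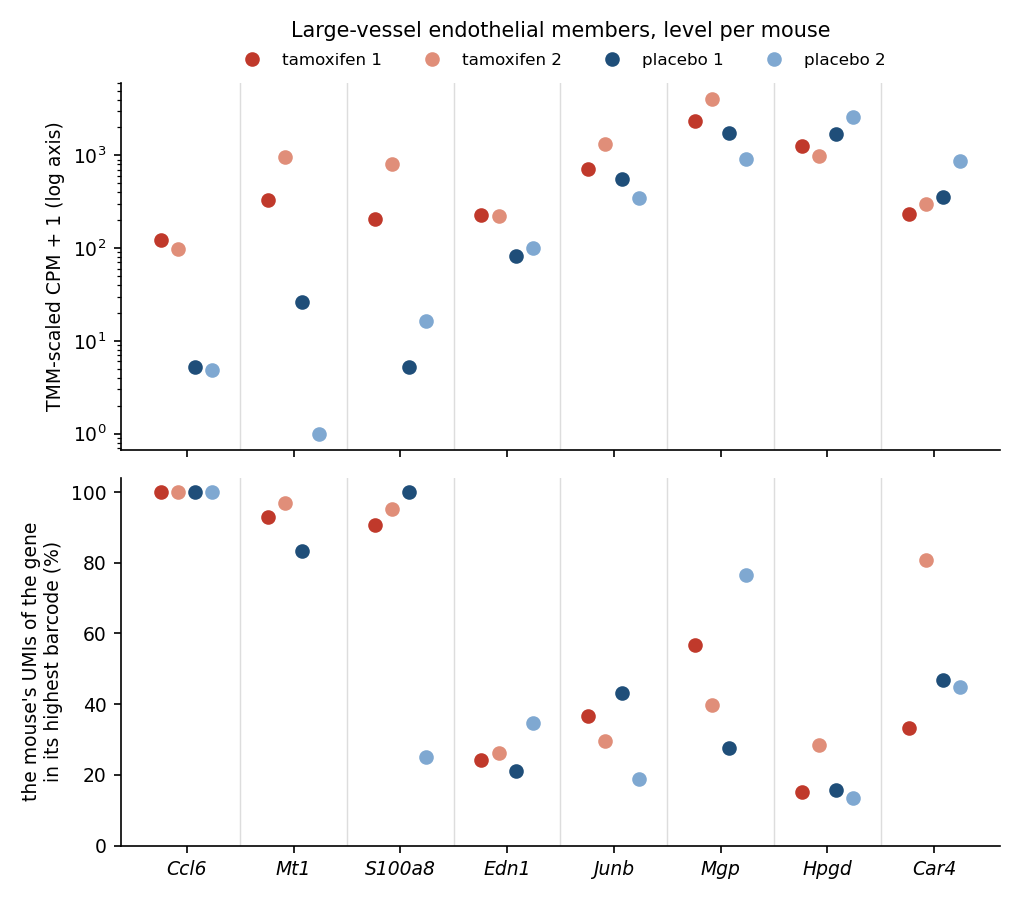
Level per mouse (TMM-scaled CPM plus 1, log axis, above) and share of a mouse's UMIs of the gene that lay in its highest barcode (percent, below) for 8 genes in large-vessel endothelial barcodes. For Ccl6, Mt1 and S100a8 a single barcode held most UMIs in both tamoxifen mice, whereas Edn1 and Hpgd were spread over many barcodes.

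Gene lists were read by how many tested genes had both tamoxifen mice above, or both below, both placebo mice. Over all tested genes these shares were 15.6% and 15.8%, and the median log2 difference was -0.005. No gene of the lists below passed the test. In the immediate early list 8 of 18 genes stood above and 0 below, with a median of 0.62. Junb, a subunit of the AP-1 factor, had 710.3 and 1321 CPM on the TMM scale in the tamoxifen mice, against 552 and 345 in the placebo mice, a log2 difference of 1.16 ± 0.35 (SE). Ier3, an early stress gene, had 769 and 976, against 382 and 552 CPM, and Dusp1, a phosphatase, a log2 difference of 0.81 ± 0.32 (SE). For Jund and Ier2 the groups overlapped. Without TMM scaling, Jund stood at 852 and 1083 CPM in the tamoxifen mice, against 991 and 839 in the placebo mice. Ier2 stood at 442 and 404, against 367 and 418. The list's median was 1.06 without tamoxifen mouse 1, 0.277 without tamoxifen mouse 2, 1.45 without placebo mouse 1 and 0.380 without placebo mouse 2.

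In the inflammatory activation list 6 of 12 genes stood above and 0 below, with a median of 0.79. Nfkbia, the inhibitor of NF-kappaB and itself a target of it, had 1141 and 1254 CPM on the TMM scale in the tamoxifen mice, against 710 and 858 in the placebo mice, a log2 difference of 0.61 ± 0.24 (SE), and was found in 31 and 14, against 32 and 25 barcodes. Socs3, an inhibitor of cytokine signalling, had a log2 difference of 1.00 ± 0.41 (SE), and of 1.85 without barcodes with markers of another cell type, 1.60 without placebo mouse 2, 0.62 without tamoxifen mouse 2 and 0.63 without placebo mouse 1. Cxcl2, a neutrophil chemokine, had 78 and 33 UMIs in the tamoxifen mice, against 4 and 22 in the placebo mice, but 98.7% and 100% of the tamoxifen UMIs lay in 1 barcode each. For Icam1, Irf1 and Vcam1 the groups overlapped. Without TMM scaling, Icam1 stood at 209 and 567 CPM in the tamoxifen mice, against 230 and 280 in the placebo mice. Irf1 stood at 115 and 206, against 122 and 241, and Vcam1 at 129 and 404, against 172 and 67.2. Without the barcodes with myeloid markers the list's median was 0.64 over 8 genes. With Cxcl1, at 0 UMIs in both placebo mice, set to its bound at 3 UMIs over that group, the median of the 12 genes stayed at 0.79.

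In the vessel wall list 8 of 22 genes stood above and 2 below, with a median of 0.70. Mgp, matrix Gla protein, had 2329 and 4020 CPM on the TMM scale in the tamoxifen mice, against 1746 and 915 in the placebo mice, a log2 difference of 1.25 ± 0.35 (SE). Eln had a log2 difference of 1.07 ± 0.44 (SE) and Sparc, a collagen-binding protein, of 0.27 ± 0.23 (SE). The fibroblast list was highest in tamoxifen mouse 2, as given above. Without the barcodes with markers of another cell type the vessel wall median was -0.08 over 13 genes and Mgp stood at -0.29. The median was 0.168 without tamoxifen mouse 2, 1.28 without placebo mouse 1, 0.201 without placebo mouse 2 and 0.0705 with equal barcodes per mouse. Eln stood at 0.12 without the barcodes with markers of another cell type, 2.06 without placebo mouse 1 and 0.50 without placebo mouse 2.

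Aerocyte genes leaned the other way, with 0 of 9 genes above and 5 below, and a median of -0.55, or -0.966 without placebo mouse 1 and -0.254 without placebo mouse 2. Car4 had 233 and 297 CPM on the TMM scale in the tamoxifen mice, against 353 and 862 in the placebo mice, a log2 difference of -1.22 ± 0.41 (SE), in 8 and 3, against 5 and 11 barcodes. It stood at -0.43 without placebo mouse 2 and -2.44 without barcodes with markers of another cell type. Cyp4b1, a cytochrome P450, and the transcription factor Tbx2 had log2 differences of -0.55 and -0.53. Ednrb, an endothelin receptor, and Apln, the peptide apelin, stood at -1.12 and -1.74 and were chosen after their values were seen.

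The lists closest to large-vessel function had medians between -0.20 and 0.19. Vascular tone genes had 2 of 21 above and 7 below with a median of -0.20, haemostasis genes 2 and 2 of 14 with 0.07, arterial genes 3 and 1 of 16 with -0.07, venous genes 0 and 1 of 12 with 0.19, and Notch genes 0 and 1 of 9 with -0.14. The venous median was -0.65 without tamoxifen mouse 1, -0.275 without placebo mouse 2 and 0.807 without placebo mouse 1. The arterial one was 0.299 without tamoxifen mouse 1, 0.192 without placebo mouse 2 and -0.342 without tamoxifen mouse 2. Without placebo mouse 1 the haemostasis median was 0.612, so these medians moved with single mice. Procr had a log2 difference of 0.82 ± 0.36 (SE). The oestrogen receptors, to which tamoxifen binds, were near the detection limit. Esr1 had 0 and 2 UMIs in members of the tamoxifen mice, against 1 and 0 in those of the placebo mice, and Esr2 had 0 and 0, against 3 and 1.

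**Figure D5:**
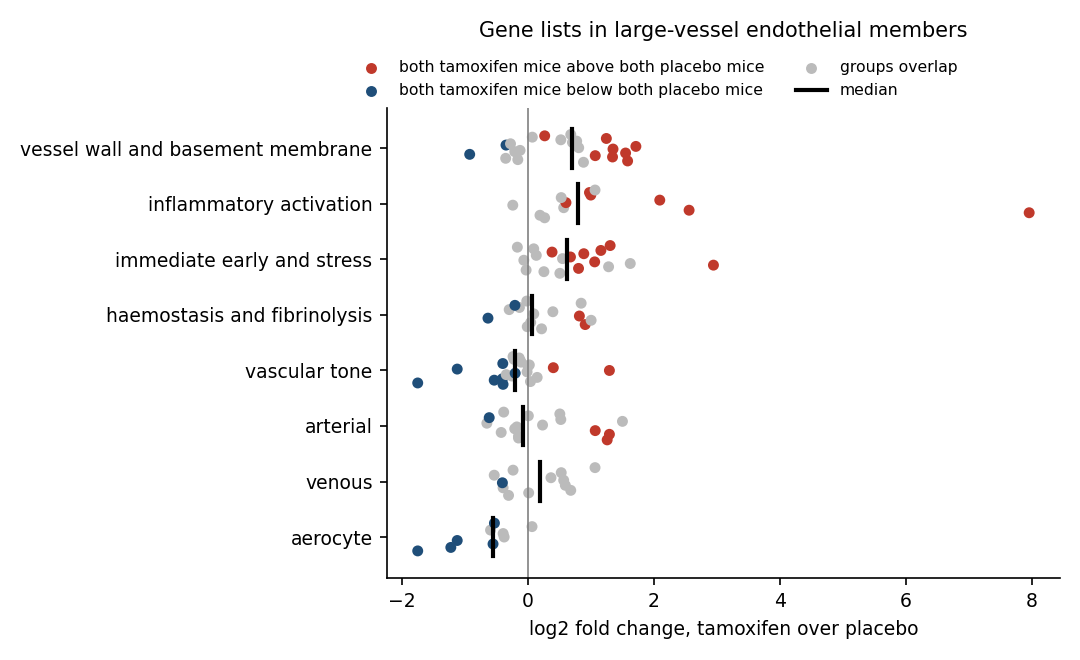
Log2 fold change, tamoxifen over placebo, of each tested gene in 8 gene lists in large-vessel endothelial barcodes, coloured by whether the 2 groups of 2 mice overlap, with the list median as a black bar. Medians were above 0.6 for vessel wall, inflammatory activation and immediate early genes and -0.55 for aerocyte genes, and the point farthest right is Cxcl1, whose fitted value against 0 placebo UMIs is no bound.

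Whether the tamoxifen difference was particular to large vessels was tested as an interaction with the other endothelial barcodes of the same mice. Tested on their own, the other endothelial barcodes had 6 of 8629 genes called (0.0695%). Of 6518 genes in the interaction, 1 (0.0153%) passed, and 261 had an unadjusted p under 0.05. Without tamoxifen mouse 1 the count was 52, without tamoxifen mouse 2 it was 59, without placebo mouse 1 it was 20 and without placebo mouse 2 it was 16, Ccl6 among them each time. Ccl6 had an interaction of 6.26 ± 0.71 (log2, SE, edgeR adjusted p = 0.0361), with 54.1 and 14.6 CPM, without TMM scaling, in the other endothelial barcodes of the tamoxifen mice, against 136 and 90.8 in those of the placebo mice. It rests on the same 2 barcodes as the Ccl6 result above, and 0 genes passed without the barcodes with myeloid markers. Without barcodes with a high doublet score, of which none was a member, the Ccl6 interaction was 6.22 with an edgeR adjusted p of 0.0557, so the value hardly moved while the call was lost. For Edn1, Hpgd and the other genes named above except Ccl6, a difference between large vessels and other endothelium was not called. In the other endothelial barcodes Hpgd stood at 1136 and 1271 CPM, without TMM scaling, in the tamoxifen mice, against 1422 and 2184 in the placebo mice. On that scale Dusp1 stood at 1196 and 1111, against 976 and 580, and Edn1 at 176 and 80.0, against 146 and 147.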

How the data were processed

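The authors deposited raw UMI counts per gene and barcode, 1 matrix per mouse with 32285 genes, and the files held 7539 and 10168 barcodes for the tamoxifen mice and 9776 and 7272 for the placebo mice. Cell Ranger 5.0.0 is named per the file headers, whereas mm10 and version 8.0.1 of that program are listed per the submitters' processing notes, and no source used here settles which made the counts. Kept barcodes had at least 250 genes, at most 15% mitochondrial UMIs and under 50% haemoglobin UMIs. Doublet scores came from Scrublet in scanpy 1.11.5 and removed nothing, since the automatic threshold marked 135 and 30 barcodes in the tamoxifen mice and 148 and 2 in the placebo mice.

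UMI counts were summed per mouse and tested with edgeR 4.0.16 (R 4.3.3): TMM, filterByExpr, quasi-likelihood F test, Benjamini-Hochberg at 0.05, group as the only term, or mouse, type and their interaction with group. The steps were tested on simulated data first. Precision rests on the spread between 2 mice per group, and the smallest sum held 18 members. Shares were compared by exact permutation. Members, marker lists and the 39 gene lists were chosen with earlier results of these data known. Named genes were all called genes, the 5 smallest unadjusted p in each direction, the 10 largest log2 ratios on each side of a description (at least 100 UMIs, the same side in all 4 mice, pseudocount 10 CPM), up to 6 genes with the most UMIs of a list, and genes said to be chosen afterwards. Gene coordinates are from GENCODE on GRCm38, the build named mm10 in the notes. Alternatives covered the size factors, DESeq2 1.42.0, the count filter, membership, thinning, doublet scores, markers of other types and leaving out each mouse. Replicate numbers of the titles were not taken as pairs. Of the genes that the naming rule takes, 1 is not reported here.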

Additional observations from a re-analysis of the deposited data

Results flagged for a closer look

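Ccl6 had a different tamoxifen effect in large-vessel than in other endothelial barcodes, with an interaction of 6.26 on the log2 scale (edgeR adjusted p = 0.0361). Members had 31 and 10 UMIs of Ccl6 in the tamoxifen mice, against 1 and 1 in the placebo mice, while the other endothelial barcodes went the opposite way. In each tamoxifen mouse all of these UMIs lay in 1 member barcode that also had at least 2 genes of the monocyte and macrophage list, and without barcodes with myeloid markers the call was lost.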

How the results depend on the processing

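The number of genes called between tamoxifen and placebo members, 3 in the reported fit, was 56 with no count filter, 2 with DESeq2, 1 with the replicate block, and 0 under stricter membership, at most 10% mitochondrial UMIs, equal barcodes per mouse, or without barcodes with markers of another type or with myeloid markers, the last chosen after seeing the data; leaving out 1 mouse at a time gave 0 to 67. The interaction, 1 call in the reported fit, gave 3 calls with DESeq2's size factors in edgeR, 4 with DESeq2, 55 with no filter, 9 under stricter membership, 3 at the lower mitochondrial limit, 6 without barcodes with markers of another type, and 0 without high doublet scores, without myeloid markers and with equal barcodes; leaving out 1 mouse gave 16 to 59. Across genes, the deviations of same-numbered mice from their group means had r = -0.0564. With 2 mice per group and sparse sums this cannot show whether the numbers are pairs, and they were not read as pairs. The difference in share of kept barcodes, -0.127 points, ranged from -0.265 to 0.0116 with 1 mouse left out, and turned over only without tamoxifen mouse 2. The share of endothelial barcodes ranged from 0.299 to 2.83, and was -2.97 when thinned and -1.69 without barcodes with markers of another type. The arterial share ranged from -9.33 without tamoxifen mouse 2 to 30.7, and was -31.7 when thinned. Mgp turned to -0.29 without barcodes with markers of another type and Sparc to -0.25 under stricter membership; the cause was not tested. Of 468 alternatives for 36 results on named genes and list medians, 418 counted as unchanged. For a gene this meant the same direction and the same side of the threshold. For a list median it meant a move smaller than the SD between mice of a group. The sign of a median could therefore change, as that of the arterial list did. Most of the named genes were not called, so for them unchanged means still not called. Without high doublet scores no member was left out, so there the member fits repeat the reported one. Settings in which a gene was not tested are not among the 468. Arterial and venous members were not fitted apart, with 9 and 1 barcodes in tamoxifen mouse 2. With 18 to 42 members per mouse, depth limits what low genes can show.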
